A study of Homo sapiens with 12 samples.

Results

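The miR-379 to miR-656 cluster is a run of miRNA hairpins on the long arm of chromosome 14, at 14q32. It was described here in small RNA libraries of the PANC-1 and AsPC-1 cell lines, both from human pancreatic ductal adenocarcinoma (PDAC), with and without knockdown of the gene MYEOV. Its members were found by name: the mature miRNAs whose name without the arm is 1 of 42 names from miR-379 to miR-656. Of the 1733 mature miRNAs listed in at least 1 library, 72 were members. They belong to 41 of the 42 names, miR-300 being listed in no library. The cluster itself was selected on values of these libraries, its levels in the lines and its changes after knockdown in PANC-1 cells, so those patterns are a description and not independent evidence.

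There were 4 groups of 3 libraries each. AsPC-1 control and PANC-1 control libraries are titled as wild type and described as without treatment, while the protocol names a negative control siRNA. AsPC-1 MYEOV knockdown and PANC-1 MYEOV knockdown libraries are titled si-MYEOV-1 to si-MYEOV-3, and the protocol names 2 siRNAs against MYEOV, transfected with a lipid reagent, so what the number in a title stands for is not given. RNA was taken 48 h after transfection by the labels, and earlier by the study's methods. Both lines were grown in medium with 10% fetal bovine serum. MYEOV itself was not measured in these libraries, so the knockdown could not be checked in them. The study's methods say in general that experiments were repeated independently, but neither they nor the labels say that the 3 libraries of a group were separate cultures. Without that, p-values measure only the spread between these libraries, which may be technical.

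The cluster is imprinted: in most tissues it is expressed from the chromosome inherited from the mother, as part of long non-coding transcripts that follow MEG3. Its miRNAs are best known from brain, placenta and embryonic tissue, and from cells of mesenchymal type. A miRNA hairpin is cut into 2 arms, named 5p and 3p for the side of the hairpin, and one of them is usually the more abundant. Bases 2 to 8 of the mature miRNA, the seed, pair with target mRNAs, so miRNAs with one seed can share targets.

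The sequences that carry the results are given here, 5′ to 3′, with the seed in capitals. They were taken from RefSeq (table build GRCh38.p14), which held 71 of the 72 members. The most abundant member was the following.
miR-381-3p: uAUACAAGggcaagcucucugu

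The 10 members below form 5 pairs with one seed each, and 9 of them were called lower after MYEOV knockdown in PANC-1 cells. MiR-376c-3p follows its near relatives and has another seed.
miR-154-3p: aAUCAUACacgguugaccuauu
miR-487a-3p: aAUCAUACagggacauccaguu
miR-539-3p: aUCAUACAaggacaauuucuuu
miR-485-3p: gUCAUACAcggcucuccucucu
miR-379-3p: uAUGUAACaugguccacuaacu
miR-411-3p: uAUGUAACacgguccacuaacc
miR-1185-1-3p: aUAUACAGggggagacucuuau
miR-1185-2-3p: aUAUACAGggggagacucucau
miR-376a-3p: aUCAUAGAggaaaauccacgu
miR-376b-3p: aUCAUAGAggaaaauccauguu
miR-376c-3p: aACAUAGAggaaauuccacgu

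The next 4 are the other arms of 2 hairpins in which the arms moved apart, and a near-identical pair whose reads cannot be told apart with certainty.
miR-154-5p: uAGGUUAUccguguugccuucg
miR-379-5p: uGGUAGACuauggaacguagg
miR-376b-5p: cGUGGAUAuuccuucuauguuu
miR-376c-5p: gGUGGAUAuuccuucuauguu

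Over the 71 members with a sequence there were 61 seeds, and 9 of these seeds were shared, by 19 members in all.

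On GRCh37, the build of the deposited files, 40 hairpins of the cluster were placed by exact match, on chromosome 14 from 101488403 to 101533138, a span of 44736 bp. All 40 lie on the plus strand. The first is MIR379 (101488403 to 101488469) and the last MIR656 (101533061 to 101533138). The mature sequence of miR-381-3p was placed at 101512305 to 101512326 on the same strand. In the GENCODE annotation, 34 of the 40 hairpins lie inside a long non-coding RNA gene. MEG8 (101361107 to 101505196) holds the hairpins from MIR379 to MIR495, and MEG9 (101509245 to 101539274) holds those from MIR1185-1 to MIR656, 7 of which overlap an annotated MEG9 exon. The hairpins of the miR-376 family, such as MIR376C (101506027 to 101506092), MIR376A2 (101506406 to 101506485) and MIR376A1 (101507119 to 101507186), lie between the 2 genes.

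Depth ran from 3805084 to 7311783 counted reads per library. The floor of 3 counts stands for 0.410 to 0.788 reads per 1000000 (rpm). It covers counting error only, because PCR copies could not be told from independent molecules. The lines differed in markers of cell types, compared in control libraries. Of 6 epithelial markers 5 were lower in PANC-1 without overlap, with sums of 48684 to 52674 rpm in AsPC-1 against 258 to 285 rpm, and miR-203a-3p overlapped. All 3 markers of gut epithelium were lower in PANC-1 (97746 to 116443 rpm against 409.4 to 493.7). Of 5 fibroblast and smooth muscle markers 4 were higher in PANC-1, with sums of 7.25 to 7.70 rpm in AsPC-1 against 76.0 to 82.4 rpm, and miR-214-3p was at or near 0 in both. Both muscle markers were also higher in PANC-1 (0.684 to 1.54 rpm against 127.2 to 140.9). Of 3 neural markers, miR-9-5p (6.72 to 9.90 rpm against 4623 to 4917) and miR-128-3p were higher in PANC-1, while miR-124-3p was at most 0.788 rpm in either line. The islet marker miR-375 was higher in PANC-1 (10.3 to 12.1 rpm against 0.619 to 1.82). Of 6 blood markers 3 were lower in PANC-1 without overlap, but these were at most 2.32 rpm in any control library. The abundant blood marker miR-486-5p overlapped (389.0 to 496.5 rpm in AsPC-1 against 450.2 to 454.9 rpm). Of 2 endothelial markers miR-126-3p was lower in PANC-1 without overlap (1505 to 1819 rpm in AsPC-1 against 1177 to 1339 rpm), and miR-126-5p overlapped. The relation of these markers to the levels of the cluster was not tested. The 3 acinar markers were at or near 0 in both lines, with miR-216a-5p at 0 in every control library.

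The cluster was abundant in PANC-1 cells and nearly absent from AsPC-1 cells. Its reads made up 6.83%, 6.81% and 7.14% of all counted reads in the 3 PANC-1 control libraries. In the 3 AsPC-1 control libraries it took 47.8, 41.6 and 49.0 rpm, from 309, 297 and 358 reads. On TMM-scaled counts per 1000000 (CPM, scaled over all 12 libraries) the sum over the cluster was 1074 ± 141.2 (SD, n = 3 against 3) times higher in PANC-1 controls. The scale moved this value, from 621 with upper-quartile factors to 1503 with total counts. Without miR-381-3p it was 865. In bulk libraries, fewer cells with a miRNA and less of it per cell cannot be told apart.

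**Figure D1:**
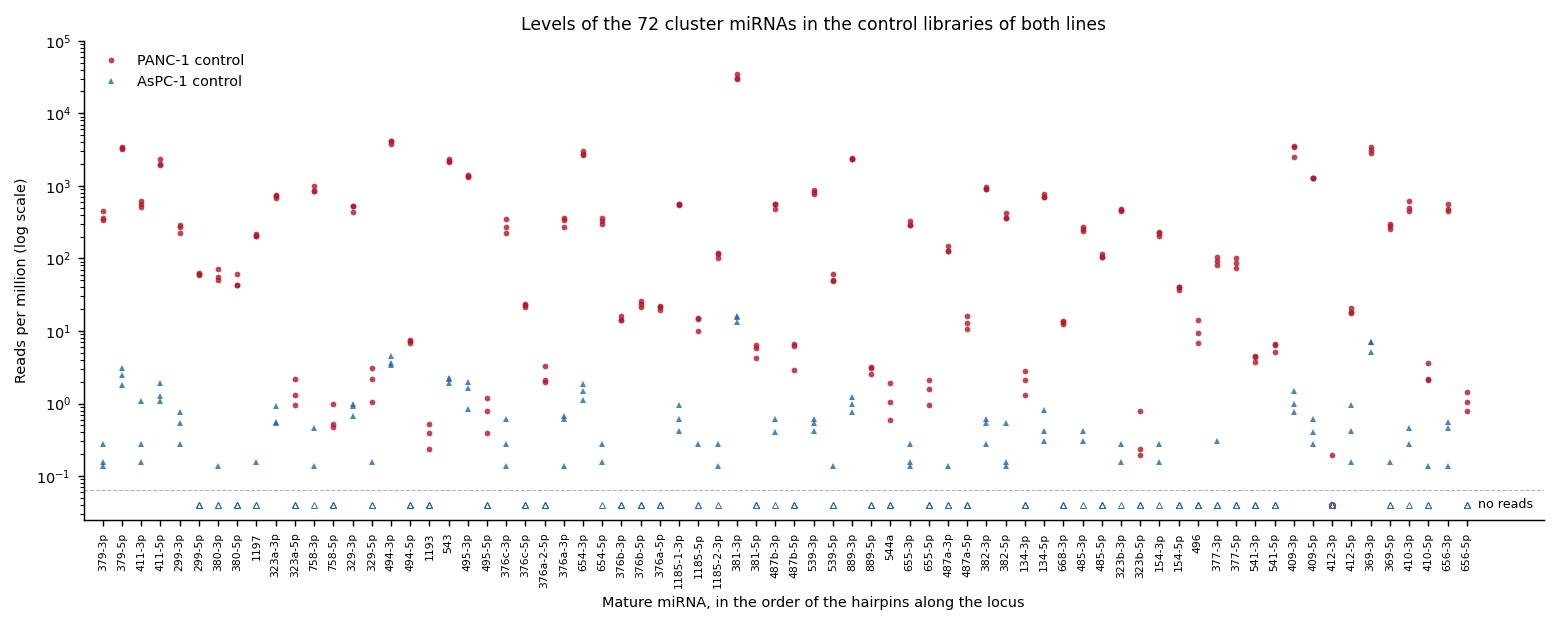
Rpm (log axis) of the 72 cluster miRNAs in each control library, ordered by hairpin along the locus, with open symbols below the dashed line for libraries without a read. The PANC-1 points (circles) lie above the AsPC-1 points (triangles) for 71 of the 72 miRNAs, and miR-381-3p is highest in both lines.

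In PANC-1 controls 66 of the 72 members had more than 3 counts in every library, against 12 of 72 in AsPC-1 controls. All 3 PANC-1 controls lay above all 3 AsPC-1 controls for 71 of the 72 members, while 27.4% of all listed miRNAs were so placed. The exception, miR-412-3p, had 1 read in PANC-1 controls and none in AsPC-1 controls. The line difference chose the cluster, so no test is attached to it.

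Levels within the cluster spread widely in PANC-1 controls. The median of the 72 members was 105 CPM (TMM-scaled within the line, as are all further CPM values of PANC-1), 11 members had a mean above 1000 CPM and 20 a mean below 10 CPM. MiR-381-3p had 27201, 28675 and 34453 CPM, which was 43.1% to 49.0% of the reads of the cluster. It was far above the second, miR-494-3p, with 3892, 3951 and 3752 CPM. The third to the fifth were miR-379-5p (3134 ± 107), miR-409-3p (3026 ± 641) and miR-369-3p (2961 ± 233, mean ± SD, n = 3), which do not differ beyond their spread. Then came miR-654-3p with a mean of 2656 CPM, miR-889-3p with 2266, miR-543 with 2135, miR-411-5p with 1986, miR-495-3p with 1306 and miR-409-5p with 1224. MiR-382-3p, miR-758-3p, miR-539-3p and miR-134-5p completed the 15 most abundant, at 886 to 687 CPM. Mature lengths ran from 21 to 25 nt, and levels were compared without a correction for length or sequence. Ranks between miRNAs are therefore ranks of counted reads.

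Most hairpins of the cluster gave reads mainly from the 3p arm. Of 31 hairpins whose arms together had at least 30 counts over the PANC-1 controls, 25 had more 3p reads and 6 more 5p reads. In 17 of the 25 the 3p arm held over 90% of the reads, for example miR-381, miR-494, miR-495 and miR-889, whose 5p arms held 0.0176%, 0.178%, 0.0559% and 0.122%. The 6 hairpins with more 5p reads were miR-379 (89.5% 5p), miR-411 (78.7%), miR-134 (99.7%), miR-376b (61.4%), miR-541 (58.6%) and miR-412 (99.6%). Reads of miR-376b-5p may be shared with the near-identical miR-376c-5p, so the 5p share of miR-376b is uncertain. Hairpins with nearly balanced arms were miR-380, with 45.6% 5p reads over the 3 control libraries, and miR-377, with 48.4%.

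The miR-376 family held both patterns. In PANC-1 controls miR-376a-3p had 336.9, 325.5 and 262.9 CPM and miR-376c-3p had 320, 254 and 220 CPM. MiR-376b-3p, with the seed of miR-376a-3p, had only 12.98, 15.03 and 13.97 CPM. The 5p arms were low throughout: miR-376a-5p had 18.3 to 21.2 CPM, miR-376a-2-5p 1.88 to 3.08, miR-376b-5p 20.0 to 25.3 and miR-376c-5p 20.0 to 23.5. The last pair are the near-identical sequences printed above, and their counts may be those of shared reads. MiR-376a-3p comes from 2 hairpins, MIR376A1 and MIR376A2, and its counts cannot be split between them. The same holds for miR-329-3p, miR-329-5p and miR-1185-5p. The miR-376 family is known for A-to-I editing within the seed, and only reads that matched the genome perfectly were counted, so edited molecules are not in these values.

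In AsPC-1 controls the few reads of the cluster came from much the same members. MiR-381-3p had 87, 110 and 118 reads, miR-369-3p 46, 37 and 52, miR-494-3p 29, 26 and 25, miR-379-5p 20, 13 and 18, and miR-543 14, 16 and 14. Over the 30 members with more than 3 reads in the AsPC-1 controls together, the AsPC-1 level in rpm was 0.0216% (miR-758-3p) to 2.77% (miR-412-5p) of the PANC-1 level, with a median of 0.0744%. MiR-412-5p stood apart, with 1, 3 and 7 reads in AsPC-1 controls and 18.999 rpm in PANC-1 controls; the next highest was miR-369-3p at 0.207%. Across the 72 members, the summed control reads of the lines correlated with a Spearman rho of 0.89, a description over miRNAs that share libraries and depth. MiR-485-5p had no read in AsPC-1 controls and was at least 312-fold higher in PANC-1, taking the floor of 3 counts over the group and the lowest of 4 scalings (upper-quartile factors). With TMM the bound was 541.2. By the same measure miR-299-5p was at least 177-fold higher and miR-154-5p at least 113-fold higher. No read of 24 of the 72 members was found in any AsPC-1 library. The reverse was measured for the miRNAs of AsPC-1: in PANC-1 controls miR-192-5p was at 0.442% and miR-141-3p at 0.145% of their AsPC-1 level in rpm. Whether reads of the cluster in AsPC-1 libraries came from AsPC-1 cells or from other libraries was not tested.

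After MYEOV knockdown in PANC-1 cells, 18 of the 33 tested 3p miRNAs of the cluster were lower, while its most abundant miRNA was higher. Of the 60 members tested, 21 were called lower and 1 higher at an adjusted p under 0.05 (edgeR quasi-likelihood test, Benjamini-Hochberg adjustment over all 551 miRNAs tested), and 38 were not called. Over all miRNAs tested, 9.26% were called lower and 12.7% higher. These shares depended on the scaling, with 21.2% lower and 4.72% higher with total counts, and 5.26% and 11.8% with upper-quartile factors. The median LFC (log2 fold change, knockdown over control) was -0.22 over the 60 members and 0.03 over all miRNAs tested. The other 12 members, at 0.0626 to 2.48 CPM in controls, did not pass the filter on low counts. The falls were moderate, with a change of -14.6% for miR-494-3p and -42.3% for miR-154-3p at the ends. In each of the 21 the 3 knockdown libraries lay below all 3 controls. Such a gap was found for 28 of the 60 members, and for 17.1% of all miRNAs tested. The count of 21 was 13 without knockdown replicate 2, when 4.39% of all miRNAs were called lower, and 32 with total-count scaling, which moved the LFC of all miRNAs by -0.15 in the median. The PANC-1 changes entered the choice of the cluster, and this count is not independent evidence. Of the 31 markers of cell types 19 were tested, and 3 were called after knockdown by the same test. These were the epithelial miR-429 (LFC -0.43, adjusted p = 0.0403), the endothelial miR-126-3p (LFC 0.24, adjusted p = 0.0414) and the muscle marker miR-1-3p (LFC 0.36, adjusted p = 0.0174). The other tested epithelial markers had an LFC from -0.15 to 0.07. The other endothelial marker, miR-126-5p, went the other way (LFC -0.26), and the other muscle marker, miR-133a-3p, had an LFC of 0.27. The 3 tested fibroblast and smooth muscle markers had an LFC from 0.02 to 0.08. The neural miR-9-5p and miR-128-3p had -0.13 and -0.04, and the gut epithelial markers ran from -0.23 (miR-194-5p) to 0.07. The islet marker miR-375 had -0.42 and the blood marker miR-486-5p 0.22. The relation of these markers to the changes of the cluster was not tested.

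**Figure D2:**
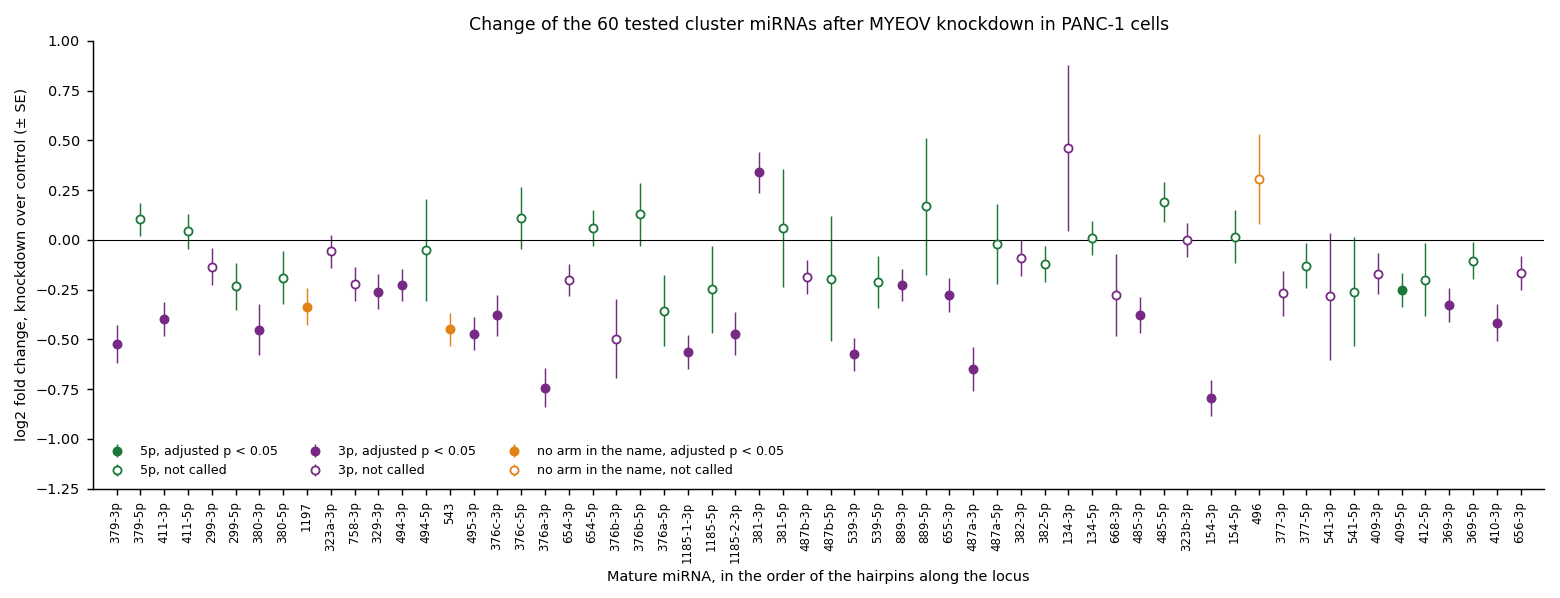
LFC after MYEOV knockdown in PANC-1 cells with its standard error (bars) for the 60 tested cluster miRNAs in locus order. Filled points passed an adjusted p under 0.05. Most filled points are 3p miRNAs (18) below 0, and miR-381-3p is the one filled point above it.

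The largest falls were those of miR-154-3p, miR-376a-3p and miR-487a-3p. MiR-154-3p had 213, 210 and 198 CPM in controls and 119.7, 123.6 and 114.8 after knockdown, an LFC of -0.79 ± 0.09 (SE, adjusted p = 1.83e-07). The libraries of each group lay close together and far from those of the other. MiR-376a-3p fell from 336.9, 325.5 and 262.9 to 202, 183 and 169 CPM (LFC -0.74 ± 0.10, adjusted p = 1.92e-06). Control replicate 3 was the lowest of the controls and still above every knockdown library. MiR-487a-3p fell from 135, 119.7 and 123 to 68.2, 78.1 and 94.1 CPM (LFC -0.65 ± 0.11, adjusted p = 7.38e-05). Its knockdown libraries spread more than its controls and did not overlap them.

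Of the 9 shared seeds, 8 had 2 tested members, and in 4 of these 8 both were called lower, in 1 one of them, and in 3 neither. Among the other tested miRNAs with a sequence, all sharers were called lower for 1 of 49 shared seeds. The pairs printed above are those with a called member, chosen after the values were seen. MiR-154-3p and miR-487a-3p share the seed AUCAUAC. MiR-539-3p, at 800.1, 786 and 760 CPM in controls and 515.1, 489.3 and 569.9 after knockdown, and miR-485-3p, at 237, 259 and 235 and 204, 182 and 178, share the seed UCAUACA (LFC -0.58 and -0.38). MiR-379-3p and miR-411-3p, both the minor arm of their hairpin, share AUGUAAC. The former went from 419.6, 346 and 335 to 276, 256 and 234 CPM, the latter from 565, 538 and 501 to 422.5, 412.5 and 384.1 CPM (LFC -0.52 and -0.40). MiR-1185-1-3p and miR-1185-2-3p share UAUACAG and are near-identical, so the split of reads between them is uncertain. The former went from 515.6, 541.02 and 531.4 to 326.2, 375.1 and 374.2 CPM and the latter from 111, 111 and 101 to 74.4, 71.3 and 86.8 CPM (LFC -0.56 and -0.47). In the pair with the seed UCAUAGA, miR-376a-3p was called and miR-376b-3p, with 9.11 to 10.8 CPM after knockdown, was not (LFC -0.50 ± 0.20, adjusted p = 0.0726). The seeds with no called member were GUGGAUA (miR-376b-5p and miR-376c-5p, LFC 0.13 ± 0.16 and 0.11 ± 0.16), UGGUUAU (miR-487a-5p and miR-487b-5p, -0.02 and -0.19), GGUGGGC (miR-654-5p and miR-541-3p, 0.06 and -0.28) and GGUUGUC, with miR-494-5p (-0.05) as its only tested member of 3.

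The letters UCAUA within the first 8 bases, chosen for display after the values were seen, were held by 6 of the 59 tested members with a sequence. These were miR-154-3p, miR-487a-3p, miR-539-3p, miR-485-3p, miR-376a-3p and miR-376b-3p. None of the 430 other tested miRNAs with a sequence held them there. Of the 6, 5 were called lower, and their LFC ran from -0.79 to -0.38.

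Among the more abundant members called lower, miR-543 had 1964, 2249 and 2192 CPM in controls and 1595, 1592 and 1504 after knockdown (LFC -0.45 ± 0.08, adjusted p = 1.89e-04). MiR-495-3p, next to it on the chromosome, had 1207, 1316 and 1395 and then 932, 903 and 992 CPM (LFC -0.47 ± 0.08). MiR-369-3p fell from 3212, 2919 and 2752 to 2581, 2305 and 2196 CPM (LFC -0.33 ± 0.09, adjusted p = 0.00713). MiR-494-3p and miR-889-3p, second and seventh in level, were called by a small margin, with an LFC of -0.23 each and an adjusted p of 0.0428 each. MiR-409-5p, the one 5p member called, had 1194, 1217 and 1260 CPM in controls and 953, 1026 and 1104 after knockdown (LFC -0.25 ± 0.08, adjusted p = 0.0288). Its sister arm miR-409-3p had 2306, 3240 and 3533 CPM in controls, a spread that contains the knockdown values of 2612, 2659 and 2801 CPM, and was not called (LFC -0.17 ± 0.10). The remaining members called lower were miR-380-3p (LFC -0.45), miR-410-3p (-0.42), miR-376c-3p (-0.38), miR-1197 (-0.34), miR-655-3p (-0.28) and miR-329-3p (-0.26). Calls near the threshold depended on the processing and on single libraries. With upper-quartile factors the calls of miR-329-3p, miR-369-3p, miR-409-5p, miR-494-3p, miR-655-3p and miR-889-3p were lost. In one fit of all 12 libraries the same calls except that of miR-369-3p were lost, and that of miR-380-3p, and without a filter miR-329-3p, miR-409-5p, miR-494-3p, miR-655-3p and miR-889-3p were not called. Without knockdown replicate 1 the calls of miR-1197, miR-329-3p, miR-409-5p, miR-494-3p and miR-889-3p were lost, and without knockdown replicate 2 also those of miR-369-3p, miR-380-3p and miR-655-3p. Without knockdown replicate 3, miR-329-3p, miR-369-3p, miR-376c-3p, miR-494-3p and miR-655-3p were no longer called lower. Without control replicate 2, miR-329-3p, miR-409-5p, miR-494-3p and miR-889-3p were not, without control replicate 1 miR-376c-3p, and without control replicate 3 miR-889-3p.

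**Figure D3:**
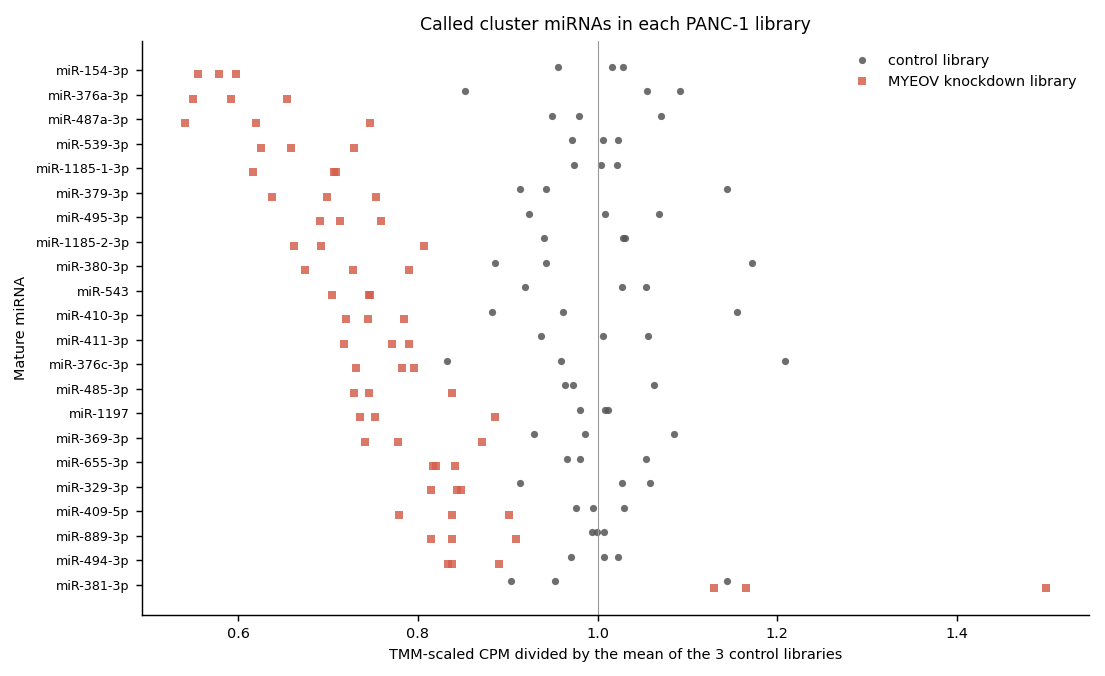
TMM-scaled CPM of the 22 called cluster miRNAs in each PANC-1 library, divided by the mean of the 3 controls (circles, control; squares, MYEOV knockdown). For the 21 called lower all squares lie left of all circles, and for miR-381-3p 1 control lies among the squares.

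MiR-381-3p was the one member called higher. It had 27201, 28675 and 34453 CPM in controls and 34017, 35069 and 45143 after knockdown, an LFC of 0.34 ± 0.10 (adjusted p = 0.0197). Control replicate 3 exceeded the first knockdown library, so the groups overlapped, and the third knockdown library was the highest. Without that library the LFC was 0.20 and the adjusted p 0.227, without control replicate 2 the adjusted p was 0.0661, with total-count scaling it was 0.141, and with upper-quartile factors the call was lost too. Over all alternatives it ran from 7.31e-04 to 0.227. Its share of the reads of the cluster was 43.1%, 44.4% and 49.0% in controls and 52.1%, 53.2% and 59.1% after knockdown, a ratio that no scaling between libraries alters. The sum over the cluster hid the change: it was 6.83%, 6.81% and 7.14% of all reads in controls and 6.39%, 6.30% and 7.03% after knockdown. Without miR-381-3p the sum was 3.89%, 3.79% and 3.64% in controls and 3.06%, 2.95% and 2.87% after knockdown, with no overlap. With 3 libraries against 3, an exact permutation test of such a value cannot give a p under 0.1, so none was run.

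Most members called lower were 3p miRNAs. Of 33 tested 3p members 18 were called lower and 1 higher, with a median LFC of -0.28. Of 24 tested 5p members 1 was called lower and none higher, with a median LFC of -0.08, and 1 had an unadjusted p under 0.05. Of the 3 members without an arm in their name, miR-1197 and miR-543 were called lower, and miR-496 had an LFC of 0.31 ± 0.23. Among the miRNAs outside the cluster, 10 of 211 3p miRNAs were called lower and 36 higher, and 14 of 210 5p miRNAs were called lower and 20 higher.

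Both arms were tested for 22 cluster hairpins, and the mean 5p to 3p ratio was higher after knockdown in 17 of them (median difference 0.26 on the log2 scale, with 0.5 CPM added to each arm). In 10 of the 22 all knockdown libraries lay above all controls, and in none below. These counts were also 10 and 0 without the added 0.5 CPM, when the ratio does not depend on how libraries were scaled. Over all 150 hairpins with both arms tested, 17.3% had such a gap upward. The hairpins outside the cluster had a median difference of -0.06, with 16 such gaps upward and 18 downward. In miR-154 the ratio was 0.179, 0.183 and 0.183 in controls and 0.348, 0.311 and 0.297 after knockdown. In miR-379 it was 7.53, 8.71 and 9.61 and then 12.9, 13.0 and 13.6. In miR-487a it was 0.114, 0.106 and 0.0877 and then 0.170, 0.177 and 0.138. The other hairpins with such a gap were miR-376b, miR-485, miR-411, miR-539, miR-889, miR-380 and miR-654. The ratio of miR-376b is uncertain, as its 5p reads may be shared with miR-376c-5p. None of the 5p arms of these 10 hairpins was called. MiR-154-5p had 37.6, 38.1 and 35.7 CPM in controls and 41.4, 38.1 and 33.7 after knockdown, and miR-379-5p had 3165, 3014 and 3223 and then 3578, 3332 and 3185. MiR-411-5p, miR-485-5p and miR-654-5p had an LFC of 0.04 ± 0.09, 0.19 ± 0.10 and 0.06 ± 0.09, and miR-539-5p, miR-487a-5p and miR-380-5p one of -0.21 ± 0.13, -0.02 ± 0.20 and -0.19 ± 0.13. In miR-382, miR-299, miR-409, miR-381 and miR-134 the mean ratio was lower after knockdown, and the groups overlapped in each.

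**Figure D4:**
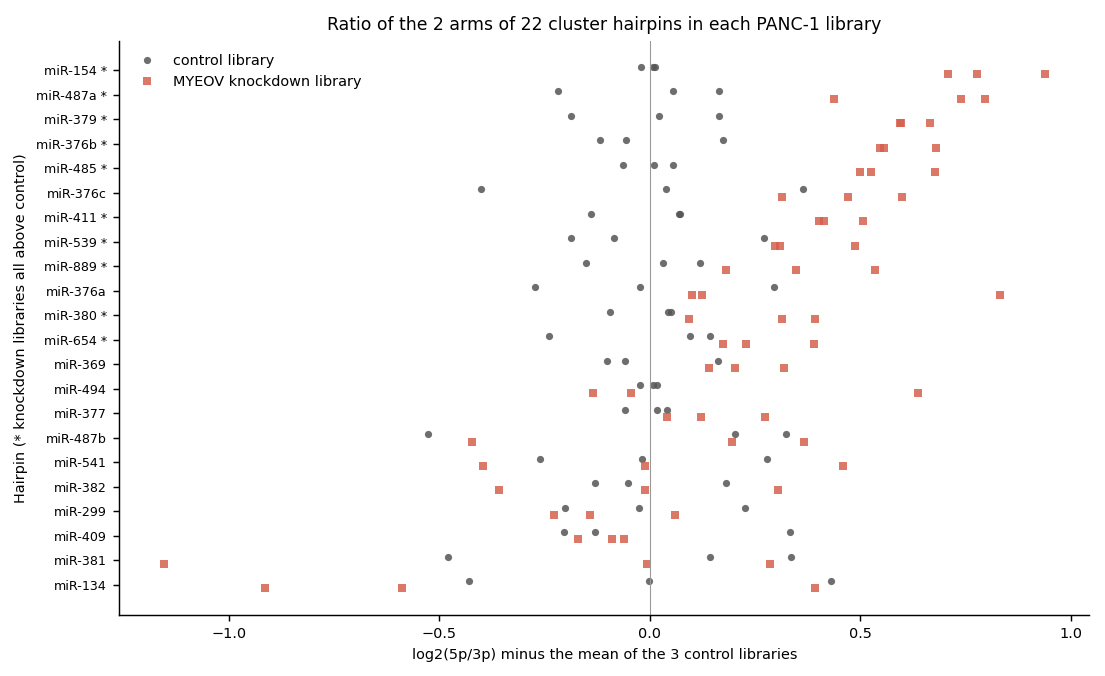
log2 ratio of 5p to 3p reads of the 22 cluster hairpins with both arms tested, in each PANC-1 library, minus the mean of the 3 controls (circles, control; squares, MYEOV knockdown). In the 10 hairpins with an asterisk all squares lie right of all circles, from miR-154 with a mean difference of 0.81 to miR-654 with 0.26.

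The members called lower lay along the whole locus. The members took 40 positions in locus order, which count both miR-329 hairpins as 1, leave out miR-300 and include miR-381 and miR-412, not among the placed hairpins. With these positions in 3 parts of 13, 13 and 14, 9 of 18 tested members were called lower at the MIR379 end, 7 of 20 in the middle, where miR-381-3p was called higher, and 5 of 22 at the MIR656 end. Among 3p members alone the counts were 7 of 10, 7 of 11 and 4 of 12, with a median LFC of -0.32, -0.47 and -0.27. The hairpin before miR-381 gave miR-1185-2-3p, which was called lower, and the hairpin after it gave miR-487b-3p, which was not called (LFC -0.19 ± 0.08). Over the 60 tested members the control level and the LFC had a Spearman rho of -0.13, a description over miRNAs that share libraries, and over the 491 other tested miRNAs it was -0.10. The member with the largest fall, miR-154-3p, was 33rd in level.

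Members called lower were most frequent at low GC content. Over 59 tested members with a sequence, the GC content of the mature miRNA and the LFC had a Spearman rho of 0.52, and over the 430 other tested miRNAs with a sequence it was 0.02. Within the 32 3p members it was 0.49 and within the 24 5p members 0.19. These are descriptions over miRNAs that share libraries and, within the cluster, part of their ancestry, and no p is given. Of 19 members below 40% GC, 11 were called lower (median LFC -0.36). Of 22 members from 40% to under 50% GC, 9 were called lower (median LFC -0.21), and of 18 members at 50% or more 1 was (median LFC -0.09). The same classes of other miRNAs had between 6.30% and 6.80% called lower.

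**Figure D5:**
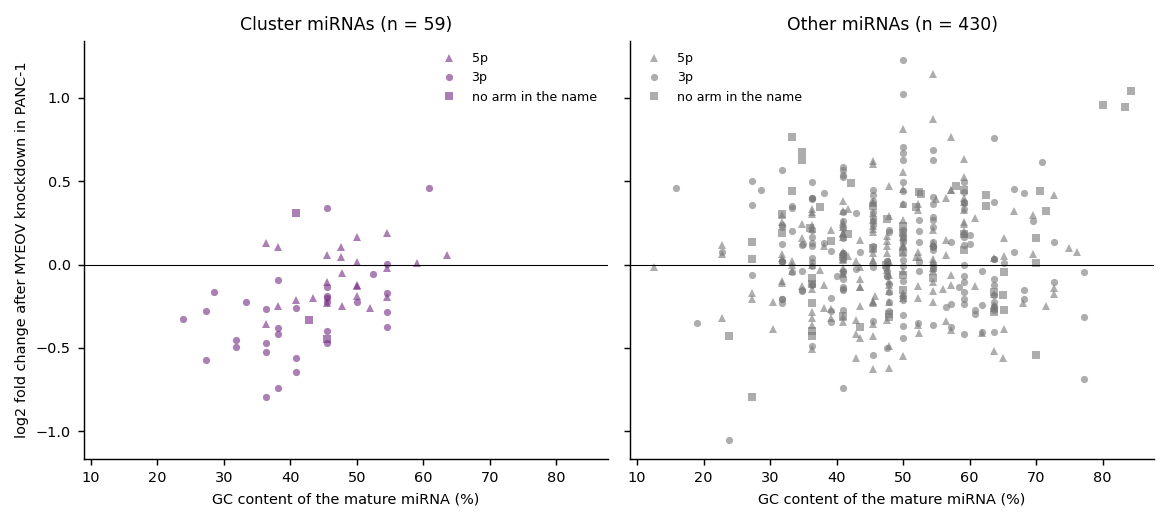
LFC after MYEOV knockdown in PANC-1 cells against the GC content of the mature miRNA (%), for the 59 tested cluster miRNAs with a sequence (left) and the 430 other tested miRNAs with one (right). On the left the points rise with GC content (Spearman rho 0.52), and on the right they show no trend (0.02).

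In AsPC-1 cells little of the cluster could be tested after knockdown. Of the 72 members 7 passed the filter, and none was called by the edgeR quasi-likelihood test or by DESeq2, while 1 had an unadjusted p under 0.05. Over all miRNAs tested in AsPC-1 4.42% were called lower and 7.03% higher. MiR-381-3p had 13.5, 15.4 and 16.1 rpm in controls and 24.4, 18.4 and 19.5 rpm after knockdown, an LFC of 0.48 ± 0.17 (unadjusted p = 0.0122, adjusted p = 0.0764 by edgeR, and 0.0736 to 0.413 over the alternatives). The other 6 had an LFC from -0.49 ± 0.31 (miR-494-3p, with 29, 26 and 25 and then 20, 17 and 10 reads) to 0.36 ± 0.23 (miR-369-3p, with 46, 37 and 52 and then 37, 51 and 55). Between them lay miR-379-5p, miR-495-3p, miR-654-3p and miR-543 at -0.11 ± 0.36, 0.07 ± 0.44, 0.27 ± 0.39 and 0.31 ± 0.34. With standard errors from 0.17 to 0.44, most changes of the size measured for these miRNAs in PANC-1 were not detectable at this depth. No AsPC-1 hairpin of the cluster had both arms tested.

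The difference between the lines was tested as the interaction of line and treatment over all 12 libraries. None of 63 members tested was called by edgeR, with 7 at an unadjusted p under 0.05, and 0.308% of all miRNAs tested were called. Of all 72 members, 24 had no read in any AsPC-1 library, and only 7 passed the filter on AsPC-1 libraries alone. Members with few or no AsPC-1 reads could hardly be called here, so this count does not show a like response of the lines. The lowest adjusted p among members was that of miR-539-3p, 0.0838, with an LFC in PANC-1 minus that in AsPC-1 of -1.72. It had 4, 3 and 4 reads in AsPC-1 controls and 7, 7 and 8 after knockdown. It was called with DESeq2 size factors (adjusted p = 0.0409), with total-count scaling (0.0348), and without AsPC-1 control replicate 1 or PANC-1 control replicate 3 (0.0328), and over all alternatives its adjusted p ran from 0.0328 to 0.250. For miR-381-3p the difference between the lines was -0.04, with an adjusted p of 0.998.

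The neighbouring group of 14q32 hairpins nearer to MEG3, from miR-493 to miR-370, is the part most like the cluster, with 17 listed miRNAs. It took 1.93%, 2.18% and 2.04% of reads in PANC-1 controls and 2.48 to 3.78 rpm in AsPC-1 controls. After knockdown in PANC-1, 2 of its 16 tested miRNAs were called lower (miR-431-5p and miR-433-3p) and none higher, with a median LFC of -0.12. This share, 12.5%, lies near the 9.26% of all miRNAs tested. The difference between both groups of hairpins was not tested.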

How the data were processed

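Small RNA of 12 libraries, 3 control and 3 MYEOV-knockdown libraries of each of AsPC-1 and PANC-1, was analysed, with groups and replicate numbers taken from the sample titles. The authors trimmed adapters, mapped the reads to hg19 with Bowtie (its version is not given in the sources used here), and deposited 1 table per library with a raw count for each mature miRNA. Perfect matches alone were kept, and a count covers the most abundant sequence of a miRNA and those with the same 5′ end, so that edited reads and isoforms starting elsewhere were left out. Entries absent from a table were set to 0.

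From these counts, miRNAs kept by filterByExpr (minimum count 10) were fitted in each line with edgeR 4.0.16 (R 4.3.3), with TMM factors, the quasi-likelihood test and no replicate block, on the whole table, and with Benjamini-Hochberg adjustment over all miRNAs tested (threshold 0.05). The interaction of line and treatment was fitted over all 12 libraries. Tests were two-sided. DESeq2 1.42.0, other size factors, other filters, a replicate block and leaving out each library were tried as alternatives. The 5p to 3p ratio was taken of CPM with 0.5 added. Members, gene lists and the names given were chosen with earlier results of these data known. The named members are the 15 most abundant in PANC-1 controls, all members called in a fit, the other arm of those hairpins, and the miR-376 family. Other members are named where a count or a range ends with them, after their values were seen. Hairpins were placed on GRCh37 by exact match and mature sequences were taken from RefSeq.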

Additional observations from a re-analysis of the deposited data

How the results depend on the processing

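In PANC-1 cells, the count of 21 members called lower was 15 to 23 with DESeq2 size factors, upper-quartile factors, the DESeq2 Wald test, other filters and all 12 libraries in one fit. It was 32 with total-count scaling, and 13 to 23 with one library left out, the lowest without knockdown replicate 2. With the replicate block 24 members were called lower and 1 higher. The titles do not say whether same-numbered libraries were paired. The correlation of the deviations of same-numbered libraries was -0.17, -0.14 and 0.11 in AsPC-1 and 0.07, 0.03 and 0.15 in PANC-1. Values so few and weak cannot tell whether they were paired. The count of 1 member called higher was 0 with upper-quartile factors and 0 with total-count scaling, and 0 to 1 with one library left out. No member was called in AsPC-1 in any alternative. In the interaction, 1 member was called in place of 0 with DESeq2 size factors, 1 with total-count scaling and 1 with TMM factors computed without the members, an alternative chosen after seeing the data, and 0 to 1 with one library left out. The summed CPM after knockdown over control in PANC-1 was 1.05 with TMM, 0.988 with DESeq2 size factors, 0.948 with total counts and 0.865 without miR-381-3p, so its direction depended on the scaling. The fold of PANC-1 over AsPC-1 controls was 1074 with TMM, 621 with upper-quartile factors, 1503 with total counts and 865 without miR-381-3p. More than 10 counts in every AsPC-1 control were found for 5 members, against 12 at more than 3. The count of 10 hairpins with a higher 5p to 3p ratio stayed 10 without a pseudocount and with at least 10 counts of both arms in every library, both chosen after seeing the data.

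None of the 22 members called in PANC-1 changed direction in any alternative, while 13 of the 38 tested members that were not called did in at least 1. Of these, miR-323b-3p ran from -0.14 to 0.041 and miR-487b-5p, at -0.19, from -0.45 to 0.022 over all alternatives. The others are given here by setting. With total-count scaling the LFC was -0.039 for miR-379-5p, -0.099 for miR-411-5p, -0.037 for miR-376c-5p, -0.083 for miR-654-5p, -0.017 for miR-376b-5p, -0.084 for miR-381-5p, -0.13 for miR-134-5p and -0.13 for miR-154-5p. With TMM factors computed without the members it was -0.017 for miR-134-5p and -0.0089 for miR-154-5p. MiR-134-5p had -0.00045 with DESeq2 size factors, -0.00044 with the DESeq2 Wald test and -0.0066 without a filter, and miR-487a-5p had 0.029 with upper-quartile factors. With one library left out the LFC ran from -0.022 to 0.11 for miR-411-5p, -0.33 to 0.083 for miR-494-5p, -0.039 to 0.12 for miR-654-5p, -0.19 to 0.35 for miR-381-5p, -0.14 to 0.11 for miR-487a-5p, -0.21 to 0.0026 for miR-382-3p, -0.052 to 0.054 for miR-134-5p and -0.057 to 0.096 for miR-154-5p. In AsPC-1 it ran from -0.35 to 0.070 for miR-379-5p and from -0.21 to 0.20 for miR-495-3p, which had -0.022 with all 12 libraries in one fit. Beyond the construction of each alternative, the cause of these changes was not tested.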

Other observations

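The other large imprinted miRNA cluster of the human genome, on chromosome 19 and best known from placenta, followed the same line difference at a far lower level. Its 42 listed miRNAs together took 28.3, 30.1 and 31.8 rpm (reads per 1000000 counted reads) in the PANC-1 control libraries and 0, 0.280 and 0.547 in the AsPC-1 control libraries. After MYEOV knockdown in PANC-1 cells they took 23.9, 29.4 and 21.5 rpm, and the groups overlapped.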
